A study of Mus musculus with 35 samples.

Results

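The genes described here are 28 genes of cholesterol and fatty acid synthesis, chosen by name, with earlier results of these data known. They were taken out of 23254 gene names in the RNA table of batch 1 and 23422 in that of batch 3. Each of the 28 was found by its gene name at 1 locus in the authors' merged assembly of either batch, and each passed the low-count filter in both. They were sorted by role: 7 enzymes of the mevalonate pathway, 11 enzymes of the sterol branch, 6 enzymes of fatty acid synthesis, and 4 genes that regulate or move sterol. The locus of Tm7sf2 also held Vps51 and that of Scd2 also held Mir5114, so these genes carry shared values.

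In the mevalonate pathway, acetyl-CoA is condensed stepwise to mevalonate and then to the isoprenoid farnesyl pyrophosphate. The sterol branch joins farnesyl pyrophosphate into squalene, closes squalene into lanosterol and trims lanosterol into cholesterol on the endoplasmic reticulum. Fatty acid synthesis draws on the same acetyl-CoA. The SREBP factors, encoded by Srebf1 and Srebf2, drive transcription of most of these enzymes, and Insig proteins retain their precursors in the endoplasmic reticulum when sterol is plentiful. The brain makes its own cholesterol, because plasma lipoproteins scarcely cross the blood-brain barrier.

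The samples were neural progenitor cells from mouse embryos, kept in culture, that were homozygous knockout (KO), heterozygous (Het) or wild type (WT) for Mettl14. Mettl14 encodes a subunit of the enzyme that writes N6-methyladenosine (m6A) on messenger RNA. RNA-seq gave 3 KO, 3 Het and 3 WT libraries in batch 1 and 2 KO and 2 WT libraries in batch 3, each from a line of its own by the labels. Regions of m6A were mapped in WT cells, and 2 marks of lysine 27 of histone H3, its acetylation (H3K27ac) and its trimethylation (H3K27me3), in 2 KO and 2 WT lines, which carry the line numbers of batch 3. The targeted allele had loxP sites around exon 2. The protocols describe a whole-animal deletion, made with EIIa-Cre and passed through the germ line, and a brain deletion made with nestin-Cre, and the labels tie no line to either. No drug or other agent is named for any group.

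Libraries held 14087371 to 20046524 estimated fragments. The Mettl14 locus, whose count includes exons outside the deleted one and so does not check the deletion, was at 22.4, 20 and 22.4 CPM in KO, 24.1, 22.6 and 24.3 in Het and 23.3, 24.9 and 22.6 in WT libraries of batch 1. In batch 3 it was at 30.3 and 22.7 CPM in KO and 37.8 and 35.4 in WT libraries. Here CPM are fragment counts scaled to a common library size. All 8 neural progenitor markers were in the tables, and their summed level was 3429 to 3805 CPM in KO, 7081 to 8014 in Het and 6844 to 7450 in WT libraries of batch 1, and 4186 to 4490 in KO against 7002 to 7645 in WT libraries of batch 3. The list did not move as one in KO against WT: 4 fell (Vim, Nes, Fabp7 and Pax6) and 3 rose (Sox2, Hes5 and Msi1) in batch 1, and 3 fell and 2 rose in batch 3. As a scale for this list and that of astrocytes, 34.3% of all genes rose and 35% fell in batch 1. In batch 3, 17.3% rose and 14.4% fell. Sox2 averaged 752 ± 32.5 CPM in KO and 377 ± 50.5 CPM in WT libraries of batch 1, and Vim 1402 ± 53.3 CPM in KO and 3435 ± 158 CPM in WT (SD, n = 3). The 7 astrocyte markers summed to 607 to 982 CPM in KO, 647 to 831 in Het and 454 to 611 in WT libraries of batch 1, and to 277 to 396 in KO against 334 to 376 CPM in WT libraries of batch 3. Beneath these sums 5 of the 7 rose in KO against WT of batch 1 (Gfap, Aqp4, Slc1a2, S100b and Gja1), 1 fell (Aldh1l1) and the median log2 fold change was 1.39. Gja1 averaged 245 ± 86.3 CPM in KO and 37.4 ± 3.96 CPM in WT libraries, Aqp4 122 ± 49.6 in KO and 13.4 ± 4.13 in WT, and Aldh1l1 45.5 ± 6.16 in KO and 222 ± 25.8 in WT (SD, n = 3). In batch 3, 2 of 6 tested rose (Slc1a2 and S100b) and 2 fell (Aldh1l1 and Aldoc), with a median of 0.63. The 8 oligodendrocyte markers summed to 558 to 657 CPM in KO, 560 to 599 in Het and 602 to 671 in WT libraries of batch 1, and to 714 to 735 in KO against 726 to 803 CPM in WT libraries of batch 3. The 7 neuron markers summed to 973 to 1171 CPM in KO, 1100 to 1244 in Het and 1125 to 1176 in WT libraries of batch 1, and to 815 to 978 in KO against 998 to 1128 CPM in WT libraries of batch 3. Single genes carried most of these last sums. In Het libraries of batch 1 Map2 averaged 1161 ± 70.7 CPM, and Tubb3, the next neuron marker, 8.8 ± 2.43 CPM (SD, n = 3). Among the oligodendrocyte markers Olig2 averaged 407 ± 49.7 and Cnp 142 ± 31.1 CPM there, and Sox10, the next, 19.2 ± 6.2 CPM. The microglial, endothelial and fibroblast lists each stayed at or under 8.11 CPM in every library, with Cdh5 at 0 in all of batch 1. In bulk RNA, fewer cells of a kind and less RNA per cell cannot be told apart, and the part that such shifts play in the results below was not tested.

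Promoters could be read for 22 of the 28 members, as 27 windows from 250 bases before to 50 bases after an annotated start (RefSeq, GRCm38.p6). Both strands were searched for the sterol regulatory element TCACNCCAC, where SREBP factors bind, and for CCAAT, the box of the factor NF-Y. The CCAAT box was in at least 1 window of 19 of the 22 members (86.4%), against 41.1% of all 27025 genes with a window. TCACNCCAC matched in Hmgcs1 alone, 1 of 22 members (4.55%), against 1.44% of all genes. A match is a description of letters and not a measured site. Only this form of the element was searched, within these windows. The lack of a match therefore does not show that a member has no SREBP site. The windows of 5 members are shown. Hmgcs1 held both motifs, and the RNA of Idi1 and Ebp fell the most in batch 1 among members with a window. The RNA of Mvk and Msmo1 rose in batch 3. Pmvk rose there as well and is not shown, and its windows held 1 and 0 CCAAT boxes. Letters run 5′ to 3′ along the gene's strand, and capitals mark the motifs as read on either strand: CCAAT or its reverse complement in every window, and 1 match of TCACNCCAC in Hmgcs1.
Hmgcs1, chr13:119690101-119690400, + strand: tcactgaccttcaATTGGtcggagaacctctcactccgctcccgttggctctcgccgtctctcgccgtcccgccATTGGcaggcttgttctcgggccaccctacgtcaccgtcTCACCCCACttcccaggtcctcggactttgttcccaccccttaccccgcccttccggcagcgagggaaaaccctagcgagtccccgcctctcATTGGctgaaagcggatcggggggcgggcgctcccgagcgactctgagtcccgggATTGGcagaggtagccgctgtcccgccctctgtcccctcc
Idi1, chr13:8885356-8885655, + strand: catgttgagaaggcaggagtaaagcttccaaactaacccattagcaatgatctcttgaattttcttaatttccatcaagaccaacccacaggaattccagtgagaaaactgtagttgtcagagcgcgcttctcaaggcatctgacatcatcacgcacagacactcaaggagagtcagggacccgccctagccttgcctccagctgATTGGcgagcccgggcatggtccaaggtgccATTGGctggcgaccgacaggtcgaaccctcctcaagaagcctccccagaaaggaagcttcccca
Ebp, chrX:8193463-8193762, - strand: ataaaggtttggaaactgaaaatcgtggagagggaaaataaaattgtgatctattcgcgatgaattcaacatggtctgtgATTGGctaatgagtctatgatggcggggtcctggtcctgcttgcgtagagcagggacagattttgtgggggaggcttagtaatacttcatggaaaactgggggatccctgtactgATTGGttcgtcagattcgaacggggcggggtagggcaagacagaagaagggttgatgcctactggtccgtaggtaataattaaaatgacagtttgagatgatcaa
Mvk, chr5:114444019-114444318, + strand: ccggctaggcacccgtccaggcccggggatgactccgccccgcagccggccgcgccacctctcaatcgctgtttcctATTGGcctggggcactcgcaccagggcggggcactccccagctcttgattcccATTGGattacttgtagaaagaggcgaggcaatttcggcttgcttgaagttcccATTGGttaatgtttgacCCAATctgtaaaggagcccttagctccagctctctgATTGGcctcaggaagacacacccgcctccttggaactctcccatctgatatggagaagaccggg
Msmo1, chr8:64733529-64733828, - strand: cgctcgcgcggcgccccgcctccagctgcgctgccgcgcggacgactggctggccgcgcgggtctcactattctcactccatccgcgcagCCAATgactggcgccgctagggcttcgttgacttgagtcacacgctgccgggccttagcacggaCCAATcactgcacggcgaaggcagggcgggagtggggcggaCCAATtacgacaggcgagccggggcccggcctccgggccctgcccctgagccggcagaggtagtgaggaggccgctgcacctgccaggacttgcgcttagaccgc
The Mvk window held 5 CCAAT boxes, that of Hmgcs1 held 4, that of Msmo1 held 3, and those of Idi1 and Ebp held 2 each.

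Measured per transcript length in WT libraries of batch 1, the members spanned a wide range. Scd2, a desaturase, was the most abundant at 584 ± 12.2 FPKM (SD, n = 3), ahead of Hmgcs1 at 343 ± 15.1 and Fdps at 289 ± 9.8 FPKM. Hsd17b7 and Ebp were the lowest, at 13.6 ± 0.572 and 14.1 ± 1.51 FPKM, and did not differ beyond their spread. Batch 3 was scaled in a table of its own, and there the same 3 genes led in WT, at 813 ± 19.7, 394 ± 0.344 and 256 ± 33.5 FPKM (n = 2). In batch 3 Ebp was lowest at 12.4 ± 0.165 FPKM and Hsd17b7 next at 13.6 ± 2.02 FPKM.

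The first comparison asked how RNA of these genes differed when Mettl14 was lost. In batch 1 KO cells had less RNA for most of the pathway: 21 of 28 members fell, none rose and 7 did not pass the test, with a median log2 fold change of −0.44 against 0.004 for all genes tested. Of all 13677 genes tested in that comparison 69.3% passed, 35% lower and 34.3% higher. On the authors' FPKM scale, by limma, the split was 4827 lower and 3313 higher of 12160 genes, with a median of −0.098 over all genes and −0.57 over the members. The test throughout was the edgeR quasi-likelihood F test, two-sided, with Benjamini-Hochberg adjustment over all genes tested and a threshold of 0.05. Libraries did not overlap for 23 members, KO below WT for 21 and above for 2 (Fdft1 and Tm7sf2), where 37.2% of all genes lay below and 36.6% above. In batch 3 the picture was mixed: 4 members rose in KO (Mvk, Pmvk, Fdft1 and Msmo1), 1 fell (Srebf1) and 23 did not pass, with a median of −0.05 against 0 for all genes. There 31.7% of 12836 genes passed, 17.3% higher and 14.4% lower. KO libraries lay above WT for 11 members and below for 7, where 34.6% of all genes lay on either side.

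**Figure D1:**
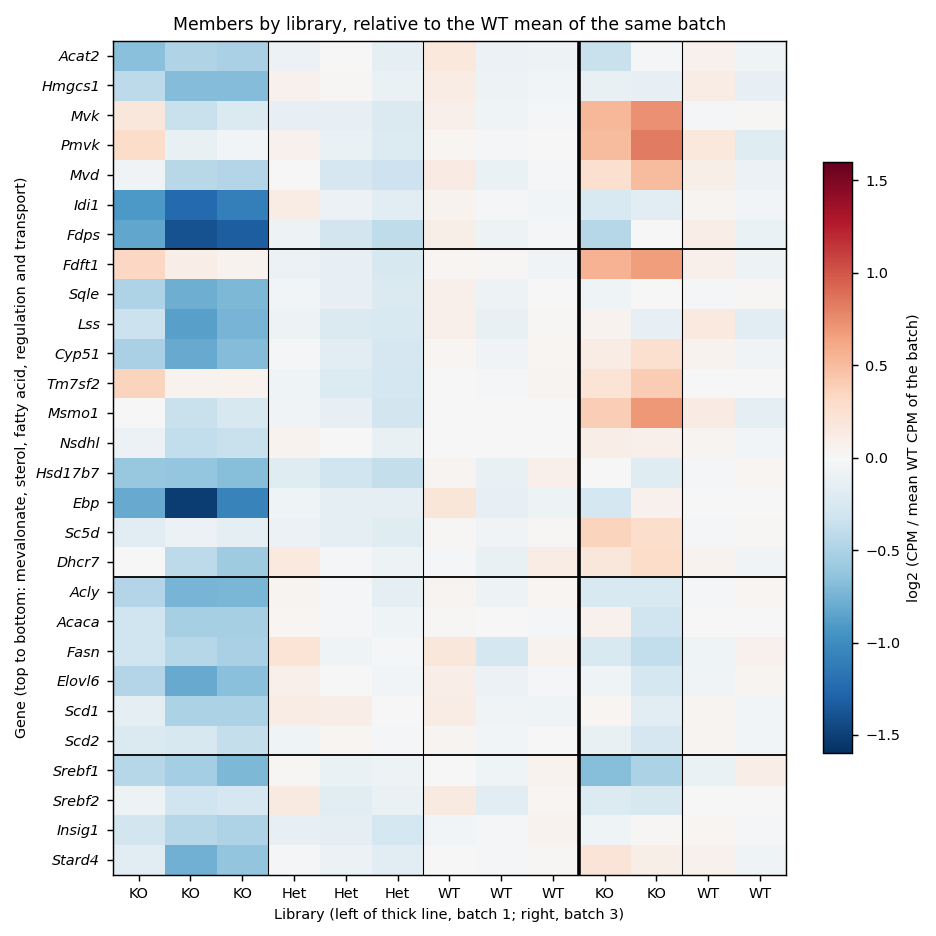
Each cell is the log2 ratio of a member's CPM in one library to the mean CPM of the WT libraries of the same batch; columns run KO, Het, WT for batch 1 and KO, WT for batch 3, and horizontal lines part the roles. The 3 KO libraries of batch 1 are blue for most members, while the 2 KO libraries of batch 3 are red at Mvk, Pmvk, Fdft1 and Msmo1 and blue at Srebf1.

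Summed over all 28 members, the level in batch 1 was 8365, 7375 and 7197 CPM in KO, 10358, 10028 and 9536 in Het and 10829, 9849 and 10336 CPM in WT libraries. Every KO library lay below every Het and WT library, and Het and WT overlapped. The ratio of KO to WT was 0.74 and that of Het to WT 0.965. In batch 3 the sum was 11399 and 11121 CPM in KO and 12343 and 11689 CPM in WT libraries, a ratio of 0.937. Without Scd2 and Hmgcs1, which make up a large share of the sum, it was 4745, 3964 and 4010 CPM in KO against 6220, 5596 and 5976 CPM in WT libraries of batch 1, and 6557 and 6634 CPM in KO against 6829 and 6678 CPM in WT libraries of batch 3. On FPKM the groups of batch 3 overlapped in that smaller sum, at 2096.6 and 2274.2 in KO and 2229.5 and 2133.4 in WT libraries. Sums were not tested, since the members were chosen with earlier results known. One KO library of batch 1 was the highest of its group at 26 of 28 members, and its sum was the nearest to WT.

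**Figure D2:**
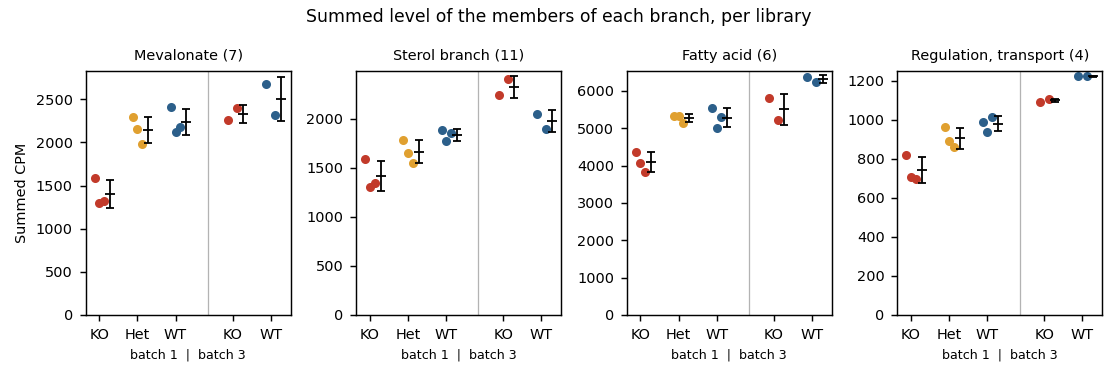
Points are the summed CPM of the members of each role in one library, and bars give the mean and SD of the group, for KO, Het and WT of batch 1 and KO and WT of batch 3. In batch 1 the KO mean is the lowest in all 4 panels, while in batch 3 the sterol branch was at 2322 ± 108 CPM in KO and 1972 ± 110 CPM in WT.

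Of the 7 mevalonate enzymes, 5 fell in KO of batch 1 (Acat2, Hmgcs1, Mvd, Idi1 and Fdps), and 2 rose in batch 3 (Mvk and Pmvk). Fdps makes farnesyl pyrophosphate and had the largest change of all members in batch 1. Its level in batch 1 was 177, 120 and 126 CPM in KO, 299, 258 and 238 in Het and 337, 297 and 312 CPM in WT libraries. KO lay below both other groups without overlap, with a log2 fold change to WT of −1.17 (SE 0.149, adjusted p = 0.000115). Batch 3 gave 211 and 289 CPM in KO against 311 and 269 CPM in WT libraries, where the groups overlapped (−0.21, SE 0.175, adjusted p = 0.384). Idi1, the isomerase that makes dimethylallyl pyrophosphate, was at 158, 126 and 140 CPM in KO, 322, 278 and 264 in Het and 309, 294 and 290 CPM in WT libraries of batch 1. Every KO library lay below every Het and WT library, with a log2 fold change to WT of −1.08 (SE 0.0911, adjusted p = 2.08e-06), and Het overlapped WT. The Idi1 level in batch 3 was 355 and 370 CPM in KO and 433 and 408 CPM in WT libraries, lower in both KO libraries but not past the threshold (−0.22, SE 0.141, adjusted p = 0.275).

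Mvk, the kinase that phosphorylates mevalonate, behaved otherwise. In batch 1 it was at 61.3, 42.4 and 45.9 CPM in KO, 49.5, 49.6 and 46.1 in Het and 57.2, 51.5 and 53.6 CPM in WT libraries, and the groups overlapped through one KO library, the highest of all (−0.12, SE 0.12, adjusted p = 0.408; −0.30, adjusted p = 0.00703, without it). By limma on log2(FPKM + 1) Mvk was called lower there with all libraries kept (−0.475, adjusted p = 0.0154). In batch 3 both KO libraries, at 56.6 and 65.1 CPM, lay above the WT libraries at 38.6 and 39.5 CPM, a rise of 0.64 (SE 0.148, adjusted p = 0.0137). Pmvk adds the next phosphate. Its level was 63.3, 47.8 and 50.3 CPM in KO, 54.4, 48.3 and 44.3 in Het and 52.7, 50.6 and 52 CPM in WT libraries of batch 1, with overlap (0.06, SE 0.109, adjusted p = 0.653). It rose in batch 3, to 76.1 and 95.8 CPM in KO against 60.4 and 47.2 CPM in WT libraries (0.68, SE 0.176, adjusted p = 0.0218). Mvd, which decarboxylates the doubly phosphorylated product, was at 62.2, 47.3 and 46.5 CPM in KO, 64, 53.7 and 51.2 in Het and 70.6, 59.7 and 63 CPM in WT libraries of batch 1. KO and WT overlapped through one KO library, and the fall of 0.31 on the log2 scale only just passed (SE 0.125, adjusted p = 0.0481). It no longer passed without any one of 5 libraries, 2 KO, 2 WT and 1 Het, with adjusted p from 0.0659 to 0.165, nor with DESeq2 size factors (0.0508) or no low-count filter (0.0507). In batch 3 the Mvd level was 62.6 and 74.3 CPM in KO and 55.7 and 49.1 CPM in WT libraries, above without overlap but not past the threshold (0.39, SE 0.154, adjusted p = 0.0891). The first condensing enzymes, Acat2 and Hmgcs1, fell in batch 1 by 0.56 (SE 0.0799) and 0.60 (SE 0.0874) on the log2 scale, and gave −0.17 and −0.13 in batch 3 without passing. Without one KO library of batch 3, Acat2 and Fdps passed there as lower (−0.34, adjusted p = 0.0214, and −0.45, adjusted p = 0.00624).

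**Figure D3:**
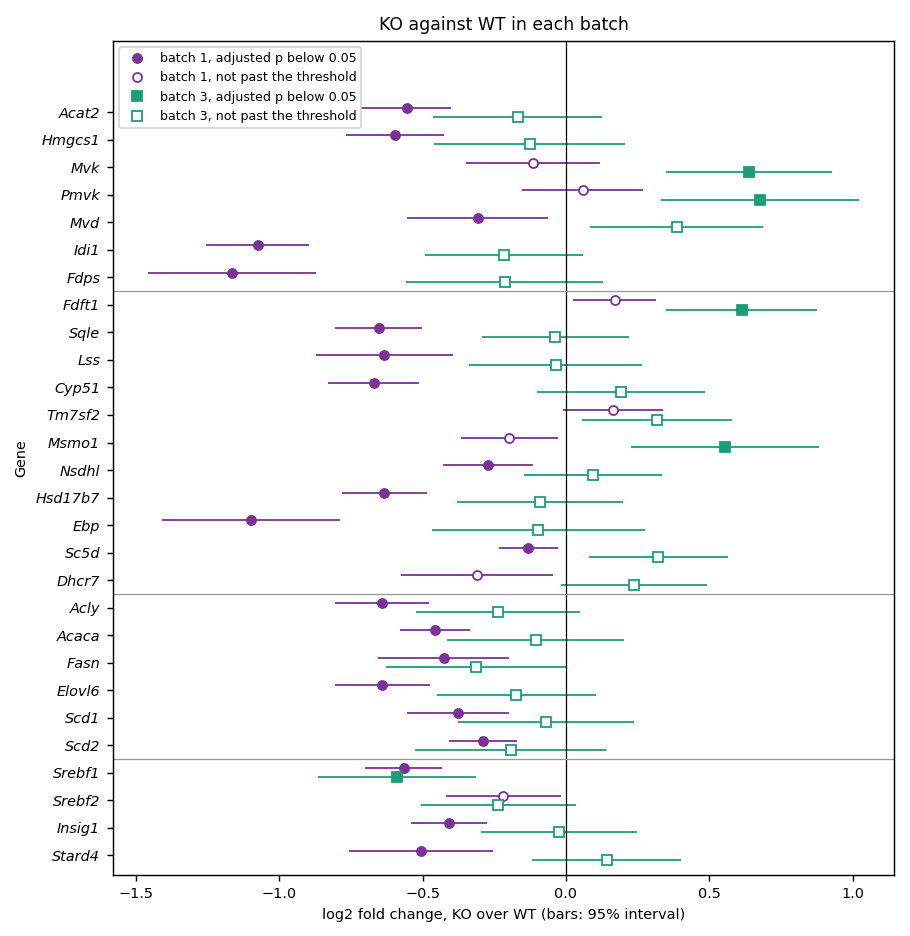
Points are log2 fold changes of KO over WT for each member in batch 1 (circles) and batch 3 (squares). Filled points passed an adjusted p of 0.05. Bars are nominal 95% intervals from the SE and a normal quantile, and are narrower than the F test implies. Batch 1 points lie left of batch 3 points for 26 of 28 members, with Srebf1 and Srebf2 the exceptions.

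In the sterol branch 7 of 11 enzymes fell in KO of batch 1, Sqle, Lss, Cyp51, Nsdhl, Hsd17b7, Ebp and Sc5d, while 2 rose in batch 3, Fdft1 and Msmo1. Ebp, the sterol isomerase, was in batch 1 at 14.1, 8.57 and 11.7 CPM in KO, 23.4, 22.1 and 22.3 in Het and 28, 22.4 and 23.3 CPM in WT libraries. KO did not overlap either group (−1.10, SE 0.158, adjusted p = 8.68e-05). In batch 3 one KO library, at 16.9 CPM, lay below and the other, at 21.6 CPM, above the WT libraries at 20.7 and 20.5 CPM (−0.10, SE 0.189, adjusted p = 0.735). Cyp51 removes the first methyl group of lanosterol. Its level in batch 1 was 328, 269 and 291 CPM in KO, 465, 416 and 392 in Het and 481, 452 and 482 CPM in WT libraries, lower in every KO library (−0.67, SE 0.0815, adjusted p = 2.32e-05). In batch 3 it stood at 465 and 513 CPM in KO against 444 and 413 CPM in WT libraries, above without overlap but not past the threshold (0.19, SE 0.149, adjusted p = 0.363).

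Sqle, the squalene epoxidase and a slow step of the branch, was at 185, 152 and 159 CPM in KO, 253, 239 and 223 in Het and 276, 246 and 260 CPM in WT libraries of batch 1. All KO libraries were below all others (−0.65, SE 0.0779, adjusted p = 2.03e-05), and in batch 3 its level was 289 and 301 CPM in KO and 298 and 308 CPM in WT libraries, which overlapped (−0.04, SE 0.131, adjusted p = 0.857). Fdft1, squalene synthase, stood apart from its neighbours in the pathway. In batch 1 its level was 232, 198 and 191 CPM in KO, 172, 169 and 155 in Het and 189, 186 and 178 CPM in WT libraries. KO lay above the other groups, which passed against Het (0.33, SE 0.0735, adjusted p = 0.00214) and not against WT (0.17, SE 0.0734, adjusted p = 0.0584). Without one or another of 2 KO libraries the comparison with WT passed as well, at 0.20 (adjusted p = 0.0488) and 0.22 (adjusted p = 0.0286). Fdft1 rose in batch 3, to 231 and 250 CPM in KO against 166 and 148 CPM in WT libraries (0.61, SE 0.134, adjusted p = 0.011).

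Msmo1, which removes further methyl groups, was at 260, 205 and 220 CPM in KO, 253, 240 and 213 in Het and 264, 261 and 261 CPM in WT libraries of batch 1. KO lay just below WT (−0.20, SE 0.0862, adjusted p = 0.0616), and the difference passed without the highest KO library (−0.30, adjusted p = 0.00247) or without one Het library (−0.20, adjusted p = 0.0403). In batch 3 it rose, to 377 and 463 CPM in KO against 313 and 260 CPM in WT libraries (0.55, SE 0.167, adjusted p = 0.0366). Among the other enzymes, Lss and Hsd17b7 each fell in batch 1 by 0.63 on the log2 scale (SE 0.122 and 0.0762), and Nsdhl by 0.27 (SE 0.08). Lss, which closes squalene epoxide into lanosterol, was at 174, 121 and 132 CPM in KO, 209, 188 and 186 in Het and 234, 204 and 224 CPM in WT libraries of batch 1. Its locus carried a failed status from the authors' quantification in the KO library at 174 CPM, the highest of its group, and in the Het library at 186 CPM, the lowest of its group. Sc5d had a small fall of 0.13 (SE 0.0526, adjusted p = 0.0442), which was lost without any one of 5 libraries, 2 KO, 2 WT and 1 Het, with adjusted p from 0.0682 to 0.114, and by DESeq2 (0.0744). Dhcr7, which makes cholesterol from 7-dehydrocholesterol, gave −0.31 (adjusted p = 0.0607) in batch 1, −0.50 (adjusted p = 0.000879) there without the highest KO library and −0.454 (adjusted p = 0.00992) by limma on log2(FPKM + 1), and 0.24 (adjusted p = 0.2) in batch 3. Tm7sf2 gave 0.16 (adjusted p = 0.119) and 0.32 (adjusted p = 0.103), on the locus it shares with Vps51. Against Het, KO of batch 1 was higher for Tm7sf2 as well (0.35, SE 0.0885, adjusted p = 0.00435).

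**Figure D4:**
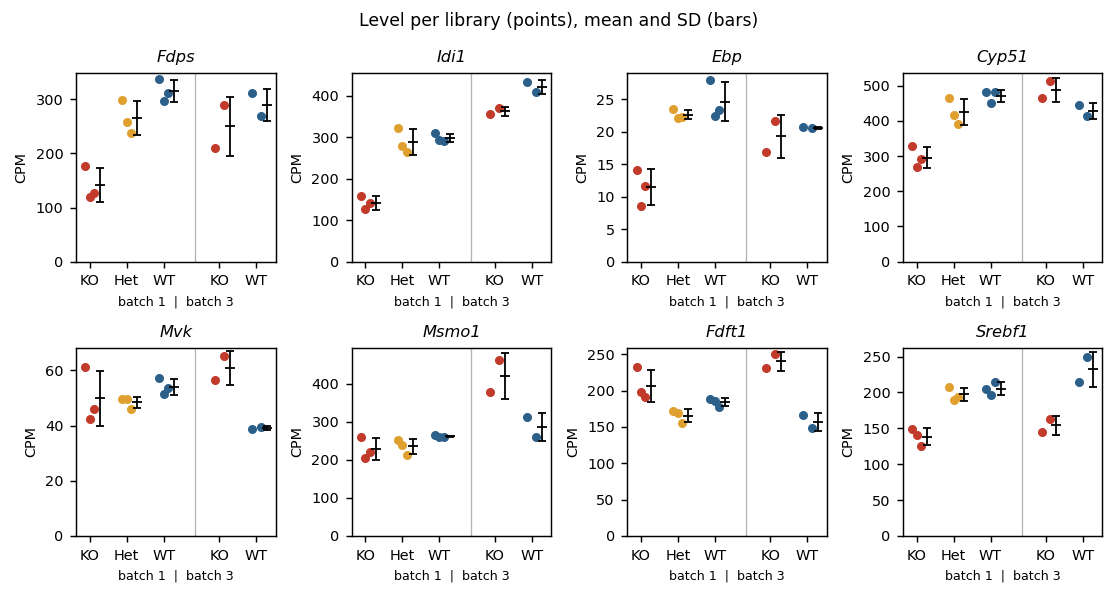
Points are the CPM of single libraries for 8 members and bars give the mean and SD of each group, with KO, Het and WT of batch 1 left of the line and KO and WT of batch 3 right of it; each vertical axis starts at 0. Fdps, Idi1, Ebp and Cyp51 are lower in every KO library of batch 1 than in any Het or WT library there, Mvk, Msmo1 and Fdft1 are high in KO of batch 3, and Srebf1 is low in KO of both batches.

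All 6 fatty acid enzymes fell in KO of batch 1, and all 6 had KO below WT without overlap. Acly, which splits citrate to supply acetyl-CoA, was at 401, 331 and 335 CPM in KO, 571, 547 and 496 in Het and 574, 525 and 566 CPM in WT libraries. KO was the lowest group and Het overlapped WT (−0.64, SE 0.083, adjusted p = 3.74e-05). Acly in batch 3 was at 454 and 454 CPM in KO and 523 and 548 CPM in WT libraries (−0.24, SE 0.146, adjusted p = 0.246). Acaca, the carboxylase that makes malonyl-CoA, fell in batch 1 by 0.46 (SE 0.0617), fatty acid synthase, Fasn, by 0.43 (SE 0.117) and the elongase Elovl6 by 0.64 (SE 0.0844) on the log2 scale. In batch 3 all 6 had a log2 fold change under 0, from −0.31 for Fasn to −0.07 for Scd1, with KO below WT without overlap for 4 (Acly, Fasn, Elovl6 and Scd2), and none passed the edgeR test, adjusted or at an unadjusted p of 0.05. DESeq2 and limma on FPKM called none of the 6 there either. Without one KO library 3 of them passed as lower, Acaca, Fasn and Elovl6, with adjusted p from 0.0189 to 0.0377.

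The stearoyl-CoA desaturases Scd1 and Scd2 are close paralogs, and fragments that fit both may have been split between them by the authors' counting. Scd1 was at 348, 275 and 275 CPM in KO, 422, 417 and 388 in Het and 421, 374 and 372 CPM in WT libraries of batch 1. KO lay below both groups (−0.38 against WT, SE 0.0917, adjusted p = 0.00351), and in batch 3 the groups overlapped at 571 and 495 CPM in KO and 575 and 544 CPM in WT libraries (−0.07, SE 0.156, adjusted p = 0.766). Scd2 was at 2661, 2613 and 2393 CPM in KO, 2974, 3184 and 3065 in Het and 3213, 3040 and 3112 CPM in WT libraries of batch 1. It was lower in every KO library (−0.29, SE 0.0606, adjusted p = 0.0013). Its batch 3 levels were 3469 and 3131 CPM in KO and 3894 and 3650 CPM in WT libraries, again lower in both KO libraries but not past the threshold (−0.19, SE 0.17, adjusted p = 0.417).

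Of the regulators, Srebf1 fell in both batches. Its level in batch 1 was 149, 141 and 125 CPM in KO, 208, 190 and 194 in Het and 205, 196 and 214 CPM in WT libraries. KO did not overlap the other groups, which overlapped each other (−0.57 against WT, SE 0.0687, adjusted p = 2.33e-05). In batch 3 it was at 145 and 163 CPM in KO against 215 and 249 CPM in WT libraries, lower in both (−0.59, SE 0.141, adjusted p = 0.0157); without one WT library it was −0.48 (adjusted p = 0.222). Srebf2, whose product is the main activator of the cholesterol enzymes, was at 206, 175 and 181 CPM in KO, 240, 194 and 203 in Het and 240, 192 and 222 CPM in WT libraries of batch 1. The groups overlapped (−0.22, SE 0.103, adjusted p = 0.0825), and the comparison passed without one KO library (−0.29, adjusted p = 0.0321), one WT library (−0.31, adjusted p = 0.0215) or one Het library (−0.22, adjusted p = 0.0446), and by limma on log2(FPKM + 1) (−0.348, adjusted p = 0.0143). Batch 3 gave 354 and 346 CPM in KO and 410 and 413 CPM in WT libraries for Srebf2, below without overlap and not past the threshold (−0.24, SE 0.138, adjusted p = 0.224).

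Insig1, which retains the SREBP precursors and is itself an SREBP target, was at 377, 336 and 328 CPM in KO, 421, 415 and 378 in Het and 446, 456 and 479 CPM in WT libraries of batch 1. The 3 groups followed one another with KO lowest (−0.41 against WT, SE 0.067, adjusted p = 0.000221; −0.22 against Het, SE 0.0669, adjusted p = 0.0118). The call against Het was lost without one KO library (−0.18, adjusted p = 0.0604). In batch 3 they overlapped, with 358 and 378 CPM in KO and 384 and 365 CPM in WT libraries (−0.02, SE 0.139, adjusted p = 0.917). Stard4, a carrier of sterol between membranes, was at 86, 57 and 62.7 CPM in KO, 96.5, 91.1 and 86.4 in Het and 97.7, 95.5 and 99 CPM in WT libraries of batch 1. KO was lowest (−0.50, SE 0.128, adjusted p = 0.00557), and one KO library lay close to Het. In batch 3 its level was 236 and 218 CPM in KO and 215 and 195 CPM in WT libraries, above without overlap but not past the threshold (0.14, SE 0.132, adjusted p = 0.445).

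In Het against WT no member passed the edgeR test, nor DESeq2 or limma, where 0.0146% of all genes passed edgeR, all higher. At an unadjusted edgeR p under 0.05 there were 3 members (Hsd17b7, Sc5d and Insig1), and 1175 of all 13677 genes tested. The members' share was thus near that of all genes. The median log2 fold change was −0.09 over the members and −0.001 over all genes. Of the members 24 had a value under 0, against 6890 of all 13677 genes. All Het libraries lay below all WT libraries for 7 members, where 7.42% of all genes did so. None had Het above WT, as 7.41% of all genes had. Hsd17b7, which reduces the keto group left by demethylation, had the lowest value at −0.29 (SE 0.0755, adjusted p = 0.481), with 56.3, 51.5 and 49.4 CPM in Het and 65.9, 58.9 and 67.6 CPM in WT libraries. The 6 fatty acid enzymes lay between −0.05 and 0.07. Set against Het, KO of batch 1 had 20 members lower, 2 higher (Fdft1 and Tm7sf2) and 6 not past the test, where 68% of all genes passed, 34.2% lower and 33.8% higher. KO libraries lay below all Het libraries for 18 members and above for 2, where 36% of all genes lay below and 36.2% above. On the authors' FPKM scale the split over all genes in that comparison was 4955 lower and 3068 higher, with a median of −0.12 over all genes and −0.51 over the members. This comparison and that of KO with WT share the KO libraries.

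Whether the KO effect differed between batches was tested with an interaction term over the 13 libraries. The effect was more negative in batch 1 for 12 of 28 members and more positive for none, where 10.7% of 13726 genes were more negative and 8.2% more positive, 18.9% in all. The median difference was −0.43 over the members and −0.01 over all genes. It included 4 of 7 mevalonate enzymes (Mvk, Mvd, Idi1 and Fdps), 7 of 11 of the sterol branch (Fdft1, Sqle, Cyp51, Msmo1, Hsd17b7, Ebp and Sc5d), none of the 6 fatty acid enzymes, and Stard4. DESeq2 called Acly (adjusted p = 0.0477) and Elovl6 (adjusted p = 0.0424) as well. The edgeR test called Acly (adjusted p = 0.0186) and Elovl6 (adjusted p = 0.0128) without one KO library of batch 1, and Acaca (adjusted p = 0.0173) and Elovl6 (adjusted p = 0.0392) without one KO library of batch 3. Ebp and Fdps differed the most, by −0.97 (SE 0.248, adjusted p = 0.0195) and −0.91 (SE 0.239, adjusted p = 0.0223). Cyp51 followed at −0.83 (SE 0.142, adjusted p = 0.00322) and Idi1 at −0.82 (SE 0.144, adjusted p = 0.0034). Mvk, Msmo1, Mvd and Stard4 differed by −0.72, −0.71, −0.66 and −0.61. Srebf1 and Srebf2 gave differences of 0.06 (SE 0.13) and 0.055 (SE 0.154) that did not pass. Over the 28 members the effects of both batches, which share no library, had a Pearson r of 0.65 and a Spearman rho of 0.59, as a description across genes. The batches hold different lines, and batch and line cannot be told apart.

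Removal of 1 library at a time kept 19 of the 21 falls of batch 1, all but Mvd and Sc5d. None of the 5 calls of batch 3 held through every such removal, and by limma on log2(FPKM + 1) only that of Pmvk passed. There no member passed without one WT library and 1 rose and 1 fell without the other, while 9 rose and 4 fell without one KO library and 5 rose and 3 fell without the other. Of the 12 differences between batches 4 held throughout, those of Idi1, Sqle, Cyp51 and Sc5d, and the number called was 4 and 6 without one or the other WT library of batch 3 and 7 without one KO library of batch 3. It was 20 and 6 without one or another KO library of batch 1, and 7 without one WT library of batch 1.

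Genes next to the pathway moved in both directions. Of 9 genes of SREBP processing and sterol sensing, 8 were tested in batch 1 with 3 higher and 2 lower in KO, and 9 in batch 3 with 2 higher and 0 lower, against the shares of all genes given above. Erlin2, whose product acts in the degradation of sterol-regulated proteins, rose in both (0.59 in batch 1 and 0.40 in batch 3). Of 14 efflux, storage and LXR genes, 7 of 13 tested rose and 2 fell in batch 1, and 4 of 12 rose and 0 fell in batch 3. Apoe, the main apolipoprotein of brain, rose by 3.34 (SE 0.357, adjusted p = 8.19e-05) and 2.99 (SE 0.31, adjusted p = 0.000714), the exporter Abca1 by 2.101 and 2.164, and Npc1, which moves cholesterol out of lysosomes, by 1.14 and 0.69. Of the 8 genes of lipoprotein uptake and sterol transport, 6 rose and 1 fell in batch 1 and 2 rose and 0 fell in batch 3, with the receptors Lrp1 at 1.597 and 1.495 and Vldlr at 0.24 and 0.82. Apoe and Abca1 are also expressed by astrocytes, of whose 7 markers 5 rose and 1 fell in KO of batch 1 (median 1.39) and 2 rose and 2 fell in batch 3, as given above; the part of those cells in these results was not tested.

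Other fatty acid genes were called in both directions. Of 17 further genes of fatty acid synthesis, desaturation and elongation, 5 rose and 9 fell in KO of batch 1, and 3 rose and 3 fell in batch 3. Of all genes, 34.3% rose and 35% fell in batch 1, and 17.3% rose and 14.4% fell in batch 3, so the counts of batch 3 were near those shares. Tecr and Elovl2, of the elongation of long chains, fell in both batches (by 0.90 and 0.88 in batch 1 and by 0.52 and 0.58 in batch 3, log2), and Mid1ip1, which promotes acetyl-CoA carboxylase activity, rose by 0.61 and 0.58. Of 12 fatty acid oxidation genes 5 rose and 4 fell in batch 1, and 4 rose and 0 fell in batch 3, where all genes had the same shares as above. Ppara, a nuclear receptor for fatty acids, rose by 1.57 and 1.83, Cpt2, a mitochondrial carnitine transferase, by 1.00 and 1.07, and Cpt1a, its outer-membrane partner, by 0.63 and 0.76. Of 10 genes of the isoprenoid side branches, 1 of 9 tested rose and 3 fell in batch 1, and 0 rose and 1 fell of 10 in batch 3. Pdss1, which builds the tail of coenzyme Q, fell in both, by 1.22 and 0.60 on the log2 scale. None of the genes in these 6 lists passed in Het against WT, where 0.0146% of all genes did.

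Sites of m6A on the member transcripts were read from the authors' 4 region lists in WT cells, which set 2 immunoprecipitates against 2 inputs and so share libraries. Of the 28 members 24 had a region on an exon in at least 1 list, and 12 had one in all 4 lists (42.9%), against 65.5% and 41.6% of 14250 genes. Hmgcs1, Nsdhl, Sc5d and Insig1 had none. Acaca carried a region in its last exon (chr11:84400944-84401538, mm10, + strand) with a fold over input of 3.93, 4.79, 3.56 and 3.6 in the 4 lists. Elovl6 had regions in its first exon, with folds of 3.59 to 4.79, and in its last exon (chr3:129633122-129633816), with folds of 2.92 to 3.43. Lss and Sqle were marked in the first exon, at folds of 3.14 to 3.47 and 2.33 to 2.53. Fdps had 1 region in 1 list, at a fold of 2.34, and Ebp 1 in 1 list, at 2.86. Fdps and Ebp are the 2 members that fell the most in batch 1. Idi1, close to Ebp at a log2 fold change of −1.075 against −1.098, had a first-exon region in 3 lists, at folds of 3.01 to 4.71.

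Set beside the RNA, the 12 members marked in all 4 lists had a median KO log2 fold change of −0.37 in batch 1 and −0.04 in batch 3. The 12 marked in 1 to 3 lists had −0.60 and −0.09, and the 4 marked in none had −0.34 and 0.04. Falls in batch 1 numbered 7 of 12, 10 of 12 and 4 of 4 in these groups, whose ranges overlapped. Of all genes tested 35% fell in that comparison, and their share within each m6A group was not computed. The m6A lists are from WT only, so no change of m6A was measured.

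H3K27ac peaks, called by line, lay within 1000 bases of a start of 27 of 28 members in all 4 lines, against 87.9% of 13222 genes. Acaca had none there in any line at the start used by its assembled transcripts. Where a gene had several starts, bases covered were read in each line at the start with the most, so lines may differ in it. Over the members the median bases covered, of 2001, were 1515 and 1507 in KO lines and 1649 and 1632 in WT lines, where all genes had 1188 and 1244 in KO lines and 1327 and 1271 in WT lines. The peak lists spanned 50.49 and 64.81 megabases in KO and 82.67 and 68.73 in WT lines. KO lines covered fewer bases than both WT lines at 8 members and more at 0, where 27.4% of all genes had KO below and 8.64% above, so the members' share below was near that of all genes. Those 8 were Acat2, Mvd, Fdft1, Sqle, Msmo1, Dhcr7, Srebf1 and Stard4. Msmo1, whose promoter letters are given above, had 613 and 680 bases covered in KO and 1057 and 1042 in WT lines, and Srebf1 had 1141 and 1583 in KO against 2001 and 1657 in WT lines. With 2 lines a group an exact permutation test cannot go below p = 0.333, two-sided, which these 8 members reached. Ebp had 907 and 956 bases in KO and 913 and 813 in WT lines, and Fasn, Scd1, Scd2, Srebf2 and Insig1 were covered throughout in all 4 lines. The Ebp window whose letters are given above overlapped a peak in 1 line only, a KO line. The other windows shown overlapped a peak in all 4 lines.

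**Figure D5:**
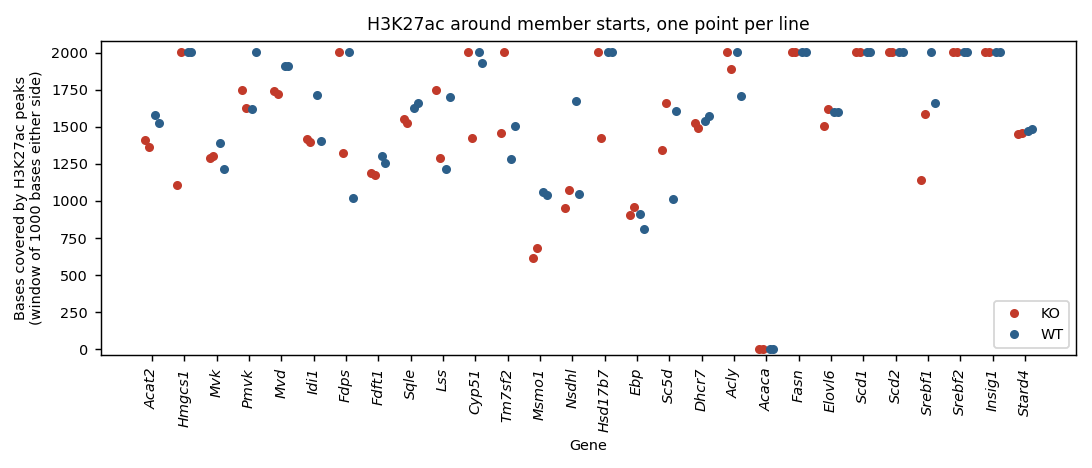
Points are the bases covered by H3K27ac peaks in the 2001 bases around a start of each member, for each KO or WT line. Where a member had several starts, the start with the most bases was taken in each line. The KO points of Msmo1, at 613 and 680, lie below its WT points at 1057 and 1042, Acaca is at 0 in all 4 lines, and KO and WT lines do not overlap at 8 members.

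H3K27me3, a mark of silenced genes, was absent from the peak lists at the start of 27 of 28 members in all 4 lines, against 81.6% of all genes. The exception was Nsdhl, where 1 KO line had a peak with a fold of 2.63 over input.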

How the data were processed

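The deposited tables give, per the file headers, estimated counts of fragments and FPKM for each locus and library, with FPKM scaled between libraries by the authors. The submitters' processing notes name TopHat2 2.1.0, Bowtie2 2.3.1, TopHat, Cufflinks, Cuffdiff and MACS2 on mm10, without roles. The deposited peak lists hold a score, a fold over input, and −log10 p and q for each region, per the file headers, called for 1 immunoprecipitate against 1 input.

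Estimated counts, of which 5.31% and 2.31% were not whole in batches 1 and 3, were summed by gene name and rounded. Loci marked as too deep to estimate were left out and those with a failed status kept. Each batch was fitted apart with edgeR 4.0.16 (R 4.3.3; TMM, filterByExpr, robust quasi-likelihood F test, Benjamini-Hochberg) and tested on simulated data. DESeq2 1.42.0 and limma 3.58.1 on log2(FPKM + 1) were alternatives. The table of batch 2 equals that of batch 1, so its 6 libraries were not analysed here. Library numbers in the tables are not tied to lines. p-values measure the spread between these libraries. Members and lists were chosen with earlier results of these data known. Values in every library are given for the 6 largest changes of either batch, 3 regulators, Scd1 and Scd2, and the 8 largest differences between batches, and up to 3 genes are named per related list, those called alike in both batches; 1 gene that the rule gives is not reported here.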

Additional observations from a re-analysis of the deposited data

Results flagged for a closer look

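For 12 members the KO effect differed between batches by the edgeR interaction test, being more negative in batch 1 than in batch 3 each time, where 10.7% of all genes were. The differences (batch 1 minus batch 3, log2) were −0.966 for Ebp, −0.914 for Fdps, −0.825 for Cyp51 and −0.822 for Idi1. They were −0.718 for Mvk, −0.713 for Msmo1, −0.656 for Mvd and −0.609 for Stard4. They were −0.58 for Sqle, −0.505 for Hsd17b7, −0.416 for Sc5d and −0.406 for Fdft1. Those of Idi1, Sqle, Cyp51 and Sc5d passed without each library in turn. The batches hold different lines, and batch and line cannot be told apart.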

How the results depend on the processing

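Settings other than the removal of 1 library at a time included fits without the Het libraries and fits of only the 2 groups compared. Of 832 values of single members under these settings, 792 kept their side of the threshold. Turns of sign where neither setting passed were counted among these. Another 21 no longer passed, 17 newly passed, and 2 turned round and passed. Both turns were Mvk in KO against Het, −0.441 (adjusted p = 0.0223) and −0.453 (adjusted p = 0.0234) by limma on log2(FPKM + 1) and log2(FPKM + 0.1), against 0.045 by edgeR; the cause was not tested. Members higher in KO than Het numbered 1 by limma with either pseudocount, and 1 with loci that join genes left out, which removes Tm7sf2, against 2. In batch 3, limma on FPKM gave 1 higher and 0 lower with either pseudocount, against 4 and 1. DESeq2 gave 18 members with a more negative effect in batch 1 than in batch 3, against 12. The summed level of KO over WT in batch 3 was 0.955 on FPKM, against 0.937. At a −log10 q of at least 5, 1 member had m6A in all 4 lists and 21 had none, against 12 and 4; the stricter threshold keeps fewer regions. There 3.57% of members and 7.73% of all genes were in all 4 lists, and 7 of 28 members and 29.8% of all genes in any.

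Without each library in turn, members higher in KO than WT of batch 1 numbered 0 to 1 and lower 19 to 24, and those higher in KO than Het 2 to 2 and lower 16 to 21. Het against WT stayed at 0 to 0 in both directions. In batch 3, 0 to 9 were higher and 0 to 4 lower, where the lone library left in a group is assumed to vary like the other group. Members with a more negative effect in batch 1 numbered 4 to 20, among them 6 without one KO library of batch 1 or one WT library of batch 3, and 7 without one WT library of batch 1 or one KO library of batch 3; those with a more positive one numbered 0 to 0. No paired analysis was possible because the libraries in the tables are not tied to lines and the groups share no replicate number that marks a pairing. With 2 libraries a group, batch 3 gives the wider intervals.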
